A study of Homo sapiens with 31 samples.

Results

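The comparison described here is ZnO nanomaterial against its control in a gut-on-chip seeded with Caco-2 cells, a line from a human colorectal adenocarcinoma that forms an enterocyte-like layer at confluence. It uses 8 of the 31 arrays of the series, chosen by their labels: 4 arrays of chip cultures given ZnO at 80 µg/mL for 6 h and 4 of chip cultures given the dispersion solution without metal. Both groups came from passages between 29 and 45 and were cultured for 21 days in DMEM+ (DMEM with serum, antibiotics and non-essential amino acids), under a flow of 100 µL/h once the membrane was in the chip. In both groups the flow was stopped for the 6 h of exposure, so neither was under flow at that time. The series also exposed chip cultures to TiO2 at 100 µg/mL and Transwell inserts, which have no flow, to ZnO at 10 µg/mL or TiO2 at 50 µg/mL, each with its own control. The concentrations were set by a dosimetry model so that the deposited doses in both systems would be equal, per the labels. The model is 1 cancer cell line with no other cell type, and nothing in the labels says that the replicates came from separate cultures, so p-values measure the spread between these arrays only.

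ZnO particles release zinc ions in medium and in acidic vesicles of the cell. Cells hold free zinc very low: metallothioneins, small cysteine-rich proteins, bind it, transporters of the SLC30 family move it out of the cytosol and those of the SLC39 family bring it in. The transcription factor MTF1 senses free zinc and binds metal response elements in the promoters of metallothionein genes and of SLC30A1. Excess zinc can also unfold proteins and consume thiols, and the heat shock, integrated stress and NRF2 responses are the usual readouts of such damage.

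Values are RMA-normalised log2 levels, so a difference of 1 is 2-fold, and the difference of means corresponds to a ratio of geometric means. Levels of different genes come from different probes and are not comparable with each other. The 8 arrays had medians from 3.24 to 3.33 over all probe sets and correlated with each other at 0.963 to 0.980. No background measure was used here, so a level below its array's median may be no signal at all. Of 10 enterocyte markers measured, 10 read above the array medians in both groups, by group mean, including VIL1, CDH1, ANPEP and SI, with a summed log2 level of 13.6 to 13.7 with ZnO and 13.6 to 13.8 in the control. Of 9 stromal and immune markers, 5 had group means below the medians in both groups, 4 (CD14, COL1A1, LUM and DES) were above, and the sum was 7.74 to 8.33 with ZnO against 7.27 to 7.95 in the control. None of the 9 passed the test, and their part in the results below was not tested. In bulk RNA, fewer cells of a type and less RNA per cell cannot be told apart. Over 11149 genes, replicate 1 of the ZnO group lay farther from its group mean than the others, with a mean squared deviation of 0.113 against 0.0514 to 0.0553 for the other ZnO arrays and 0.0460 to 0.0713 for the controls.

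MT1B, a metallothionein, was the only gene to pass at an adjusted p below 0.05 when the 16 chip arrays were fitted with limma. Its level was 7.90, 8.69, 8.33 and 9.35 on the ZnO arrays and 2.70, 2.62, 2.54 and 5.73 on the controls. Every ZnO array was above every control, and control replicate 4 stood apart from the other controls, which lay below their array medians of 3.30 to 3.33. The means were 8.57 ± 0.62 (SD, n = 4) with ZnO and 3.40 ± 1.56 (SD, n = 4) in the control, a difference of 5.17 ± 0.67 (SE, adjusted p = 0.0144), or 36-fold against controls of which 3 may hold no signal. This was 1 of 22395 genes tested (0.00447%), 1 higher and 0 lower, while 1459 genes, 866 higher and 593 lower, had an unadjusted p below 0.05. The median difference over all genes was 0.0001. Differences of at least 2-fold numbered 26 higher and 10 lower.

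The call for MT1B depended on which arrays were in the fit. Its adjusted p was 0.0548 without ZnO replicate 3, 0.112 without ZnO replicate 4, 0.11 without control replicate 1, 0.108 without control replicate 3 and 0.15 when only the 8 arrays were fitted, and no gene passed in any of these fits (1189 to 1373 genes then had an unadjusted p below 0.05). Without control replicate 4 its difference was 5.95 (adjusted p = 1.87e-04) and 5 genes passed, the others being MT1M, MCL1, CSRP1 and NR4A3. Without control replicate 2, 3 genes passed (MT1B, GADD45B and DUSP1), and without ZnO replicate 2, 2 passed (MT1B and RAB11B-AS1). With all 31 arrays in the fit, 61 genes passed. That fit estimates the spread over both systems, and the spread within groups over 11201 genes was 0.289 in the chip and 0.186 on Transwell (square root of the mean variance, log2). The 61 are 53 higher (0.237% of genes) and 8 lower (0.0357%). The adjusted p of that fit is given below as "with all 31 arrays" and can understate the spread between chip arrays.

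**Figure D1:**
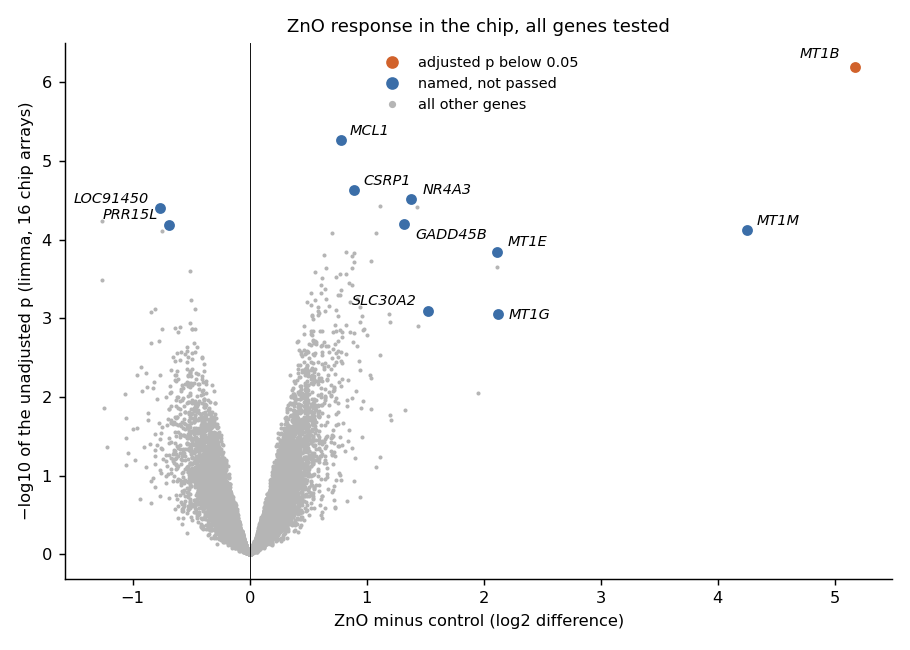
Each point is 1 of 22395 genes, with the log2 difference between ZnO and control in the chip on the x axis and −log10 of the unadjusted limma p on the y axis. MT1B, in orange, is the only gene with an adjusted p below 0.05. MT1M at 4.25, MT1G at 2.12 and MT1E at 2.11 lie to the right of nearly all other genes.

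The promoters of the metallothionein and zinc exporter genes are shown because they are where MTF1 is known to bind. Each is the 300 bases from 250 before to 50 after the start of the gene, from RefSeq on GRCh38.p14, 5′ to 3′ on the gene's own strand. Capitals mark metal response element letters, TGCACNC or TGCGCNC, on either strand; overlapping matches are shown as 1 run. MT1B lies on the plus strand at chr16:56651636-56651935 and MT1H on the plus strand at chr16:56669564-56669863, in the metallothionein cluster. SLC30A2 lies on the minus strand at chr1:26046069-26046368 and SLC30A1 on the minus strand at chr1:211579112-211579411.
MT1B: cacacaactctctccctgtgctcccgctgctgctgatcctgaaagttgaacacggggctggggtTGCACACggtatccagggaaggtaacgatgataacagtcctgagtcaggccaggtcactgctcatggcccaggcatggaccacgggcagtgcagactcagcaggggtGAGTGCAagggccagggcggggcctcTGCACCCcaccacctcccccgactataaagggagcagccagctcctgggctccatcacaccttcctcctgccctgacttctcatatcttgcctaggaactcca
MT1H: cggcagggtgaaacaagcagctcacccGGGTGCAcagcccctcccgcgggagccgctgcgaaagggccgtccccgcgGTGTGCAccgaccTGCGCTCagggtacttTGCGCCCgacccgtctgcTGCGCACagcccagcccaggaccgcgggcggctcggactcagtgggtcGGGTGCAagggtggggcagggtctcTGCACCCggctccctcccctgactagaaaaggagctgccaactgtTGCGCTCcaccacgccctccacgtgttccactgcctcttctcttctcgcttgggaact
SLC30A2: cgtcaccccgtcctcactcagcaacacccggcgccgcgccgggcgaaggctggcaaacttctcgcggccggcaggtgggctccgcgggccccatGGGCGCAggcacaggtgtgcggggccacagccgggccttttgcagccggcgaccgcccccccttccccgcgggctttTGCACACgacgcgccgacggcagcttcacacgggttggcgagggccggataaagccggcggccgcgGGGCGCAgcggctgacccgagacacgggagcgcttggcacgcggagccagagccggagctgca
SLC30A1: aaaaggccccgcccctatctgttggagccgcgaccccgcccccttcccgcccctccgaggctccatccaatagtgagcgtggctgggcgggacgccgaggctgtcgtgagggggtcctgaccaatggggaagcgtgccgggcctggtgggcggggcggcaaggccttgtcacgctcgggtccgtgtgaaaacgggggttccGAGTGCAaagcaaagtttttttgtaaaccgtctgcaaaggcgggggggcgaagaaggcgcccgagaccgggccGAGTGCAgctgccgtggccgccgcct
The window of MT1B held 3 matches, that of MT1H 8, that of SLC30A2 3 and that of SLC30A1 2. Promoters matched 5 of the 10 metallothioneins measured, and all 5 held at least 2 matches: besides MT1B and MT1H these were MT2A with 8, MT1X with 4 and MT4 with 3. At least 2 matches occurred in 8.6% of 35116 human promoters of this length and at least 1 in 29.6%. Of 10 zinc exporter and MTF1 promoters, 5 held at least 1 match. A match describes the letters only.

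Of 10 metallothioneins measured, 1 passed. A total of 9 had a difference above 0 (50.0% of all genes did), 4 had every ZnO array above every control (2.13% of all genes did), and the median difference was 1.45. The same shares of all genes apply to every list below, and 1.47% of all genes were lower without overlap. MT1B was the one that passed, and MT1M, MT1G and MT1E did so with all 31 arrays. Paralogs are nearly identical in sequence and probes can bind more than 1 of them, so the value of any single member is uncertain. MT1M read 7.38, 9.69, 9.32 and 10.15 on the ZnO arrays and 4.35, 4.79, 3.20 and 7.20 on the controls. The groups did not overlap, though the highest control (replicate 4) came close to the lowest ZnO array (replicate 1). The difference was 4.25 ± 0.82 (SE, adjusted p = 0.133 from limma), 19-fold, with adjusted p = 0.00272 with all 31 arrays.

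MT1G read 9.71, 10.61, 10.20 and 11.16 on the ZnO arrays and 8.39, 7.86, 7.26 and 9.71 on the controls. The lowest ZnO array and the highest control were equal to 2 decimals, and the other ZnO arrays were above all controls. Its difference was 2.12 ± 0.53 (SE, adjusted p = 0.327 from limma), and 0.0269 with all 31 arrays. MT1E read 6.97, 7.23, 8.15 and 7.37 on the ZnO arrays and 4.95, 4.90, 4.97 and 6.44 on the controls. Control replicates 1 to 3 were close together and well below every ZnO array, and control replicate 4 was nearer to the ZnO arrays. The difference was 2.11 ± 0.43 (SE, adjusted p = 0.192 from limma), and 0.0354 with all 31 arrays.

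MT1H read 8.78, 10.46, 9.83 and 10.67 on the ZnO arrays and 8.56, 6.66, 7.38 and 9.34 on the controls. Here the groups overlapped, since ZnO replicate 1 was below control replicate 4, and the difference was 1.95 ± 0.66 (SE, adjusted p = 0.606 from limma). Other isoforms had smaller differences: 0.95 ± 0.35 (SE) for MT1F, 0.41 ± 0.21 for MT1X and 0.24 ± 0.18 for MT2A, with adjusted p from 0.657 to 0.904 and overlapping arrays. MT3, the brain form, read below the array medians on 4 control and 2 ZnO arrays (difference -0.12 ± 0.17), and MT4, the squamous epithelium form, had a difference of 0.32 ± 0.24. The pseudogenes MT1DP (2.11 ± 0.45) and MT1L (1.19 ± 0.30), named after their values were seen, had adjusted p of 0.216 and 0.327, and MT1DP passed with all 31 arrays (0.0185).

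The same arrays were extreme across the family. Control replicate 4 was the highest control for 9 of 10 metallothioneins, against 22.8% of all genes, and ZnO replicate 1 the lowest ZnO array for 6 of 10, against 35.1%. ZnO replicate 4, of the same number as that control, was the highest ZnO array for 6 of 10, against 6122 of all 22395 genes. Without control replicate 4 the differences were 5.02 for MT1M (adjusted p = 0.0436), 2.49 for MT1E (0.0578), 2.59 for MT1G (0.116) and 2.40 for MT1H (0.322). Leaving out 1 array at a time, the median of the family ranged from 1.12 to 1.81.

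**Figure D2:**
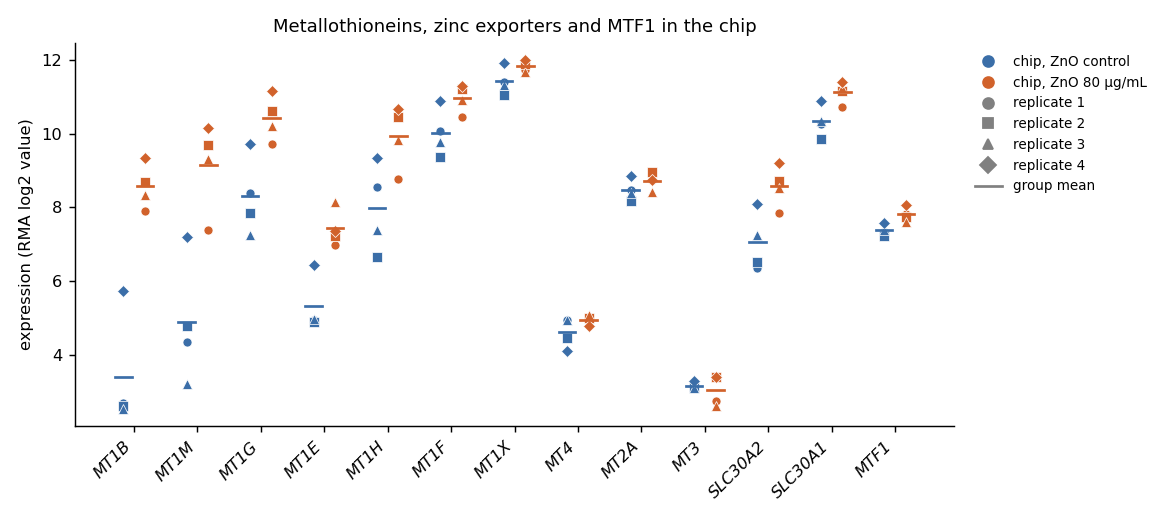
RMA log2 levels of the 10 metallothioneins, 2 zinc exporters and MTF1 on each of the 4 control (blue) and 4 ZnO (orange) chip arrays; symbols give the replicate number and lines the group means. For MT1B the ZnO arrays sit between 7.90 and 9.35, and the controls between 2.54 and 2.70 except replicate 4 at 5.73, whereas MT2A and MT3 overlap.

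Among the 11 zinc exporters and MTF1, 6 differences were above 0, the median was 0.03 and 0 members passed. The 2 exporters with the largest differences were SLC30A2, which loads zinc into vesicles, and SLC30A1, the exporter of the plasma membrane. SLC30A2 read 7.84, 8.72, 8.52 and 9.21 on the ZnO arrays and 6.35, 6.53, 7.26 and 8.08 on the controls. Only ZnO replicate 1 lay below the highest control, again replicate 4. The difference was 1.52 ± 0.37 (SE, adjusted p = 0.325 from limma), 2.86-fold, and 0.0208 with all 31 arrays.

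SLC30A1 read 10.71, 11.16, 11.23 and 11.41 on the ZnO arrays and 10.27, 9.85, 10.34 and 10.88 on the controls. The pattern was the same, with overlap between ZnO replicate 1 and control replicate 4. Its difference was 0.79 ± 0.21 (SE, adjusted p = 0.394 from limma), and 0.0381 with all 31 arrays. MTF1 itself, the zinc sensor, read 7.82, 7.73, 7.60 and 8.07 on the ZnO arrays and 7.33, 7.23, 7.38 and 7.57 on the controls. The groups did not overlap, with a difference of 0.43 ± 0.13 (SE, adjusted p = 0.509 from limma). MTF1 was also higher without overlap with TiO2 in the chip (0.35 ± 0.13) and with ZnO on Transwell (0.22 ± 0.11). Its ZnO response minus its TiO2 response in the chip was 0.07 ± 0.18. The other SLC30 exporters had differences down to -0.26 ± 0.22 for SLC30A8, the transporter of insulin granules, which read below the array medians in both groups.

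Of the zinc importers, 10 of 14 were above 0 (50.0% of all genes were), and the median was 0.14 (0.07 to 0.18 on leaving out single arrays). Only 1 member was higher without overlap (2.13% of all genes were). It was SLC39A7, which releases zinc from the endoplasmic reticulum (0.32 ± 0.12, adjusted p = 0.668 from limma). The largest difference was 0.42 ± 0.16 for SLC39A11. Copper handling genes lay on the other side, with 8 of 12 at or below 0 and a median of -0.17, which ranged from -0.26 to -0.01 on leaving out single arrays. They ranged from -0.52 ± 0.20 for COMMD1, a copper trafficking protein, to 0.25 ± 0.13 for the copper chaperone COX17. Of the zinc importers and copper genes, 0 passed. The zinc importers lay similarly with TiO2 in the chip, 12 of 14 above 0 (54.6% of all genes were), with a median of 0.13. With ZnO on Transwell 8 of 14 were above 0, with a median of 0.02.

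Of the heat shock genes, 0 passed in the fit of the chip arrays, and differences above 0 were the more frequent. Of 19 cytosolic chaperones and their partners (HSP70, HSP110, HSP90 and HSP40 families, cochaperones, SERPINH1 of the endoplasmic reticulum and HSF1), 18 were above 0 (50.0% of all genes were). Higher without overlap were 6 (2.13% of all genes were): HSPH1, DNAJA1, HSPA1L, HSPA4L, STIP1 and FKBP4. The median of the 19 was 0.49, with 0.36 to 0.64 on leaving out single arrays. HSPH1, an HSP110 that recharges HSP70, read 11.25, 11.09, 11.20 and 11.03 on the ZnO arrays and 10.17, 10.79, 9.85 and 10.68 on the controls. The ZnO arrays were tight and above all controls, and control replicates 2 and 4 lay above the other controls. The difference was 0.77 ± 0.18 (SE, adjusted p = 0.282 from limma), and 0.0195 with all 31 arrays.

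HSPA1L, an HSP70, read 6.27, 6.15, 6.20 and 6.05 on the ZnO arrays and 4.53, 5.95, 4.46 and 5.71 on the controls. Again the ZnO arrays were tight, and control replicates 2 and 4 were close beneath them. Its difference was 1.00 ± 0.27 (SE, adjusted p = 0.378 from limma). For DNAJA1, an HSP40 cochaperone, it was 0.71 ± 0.19 and for HSPA4L, another HSP110, 0.62 ± 0.17, with adjusted p of 0.37 and 0.424. Across the 19 chaperones, control replicates 2 and 4 were the 2 highest controls for 15, against 15.8% of all genes. The largest difference of the list was 1.33, for HSPA6, another HSP70, whose arrays overlapped. HSPA1A, HSPA1B, HSPA8, HSPD1 and HSPE1 were among the members not measured.

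In the list of small heat shock proteins and BAG cochaperones, 10 of 13 were above 0, 2 did not overlap and the median was 0.27 (0.17 to 0.27 on leaving out single arrays). HSPB8 and its partner BAG3, which together pass unfolded proteins to autophagy, were those 2. HSPB8 read 4.67, 4.81, 4.91 and 5.12 on the ZnO arrays and 3.61, 4.21, 3.97 and 4.31 on the controls. BAG3 read 8.65, 8.34, 8.58 and 8.43 on the ZnO arrays and 7.15, 8.06, 7.26 and 8.28 on the controls. Both had every ZnO array above the controls, and in BAG3 control replicates 2 and 4 were just beneath the lowest ZnO array. The differences were 0.85 ± 0.19 (SE, adjusted p = 0.247 from limma) and 0.82 ± 0.21 (SE, adjusted p = 0.37 from limma), and with all 31 arrays adjusted p was 0.0496 and 0.0353. HSPB1, the abundant small heat shock protein, overlapped and had a difference of 0.43 ± 0.21 (SE, adjusted p = 0.767 from limma).

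HSF1, the heat shock factor, binds repeats of the letters GAA in alternating orientation. The 2 promoters shown were picked because they hold such letters, and binding was not tested. They come from the same RefSeq windows; capitals mark GAANNTTC or TTCNNGAA, which read the same on both strands and can overlap. HSPB8 lies on the plus strand at chr12:119178681-119178980 and DNAJA1 on the plus strand at chr9:33025023-33025322.
HSPB8: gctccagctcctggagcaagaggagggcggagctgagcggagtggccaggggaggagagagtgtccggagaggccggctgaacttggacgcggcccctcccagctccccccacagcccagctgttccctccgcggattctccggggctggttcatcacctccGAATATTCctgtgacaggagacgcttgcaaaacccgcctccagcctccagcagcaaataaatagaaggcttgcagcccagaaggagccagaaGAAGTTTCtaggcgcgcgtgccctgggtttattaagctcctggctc
DNAJA1: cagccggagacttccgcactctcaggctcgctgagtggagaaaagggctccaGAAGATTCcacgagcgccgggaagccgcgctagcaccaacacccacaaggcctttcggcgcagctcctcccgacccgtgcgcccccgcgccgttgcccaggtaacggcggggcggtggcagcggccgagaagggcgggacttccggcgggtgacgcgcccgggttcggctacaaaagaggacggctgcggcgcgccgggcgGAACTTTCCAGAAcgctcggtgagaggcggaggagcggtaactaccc
HSPB8 held 2 matches and DNAJA1 3, of which 2 overlapped. The windows of HSPH1 and BAG3 held 0, which says only that these letters are not in 300 bases. At least 1 match occurred in 13.5% of the 35116 promoters, in 5 of 17 chaperone promoters and in 5 of 11 of the small heat shock and BAG list.

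The integrated stress response lowers translation and raises the factor ATF4, whose targets include DDIT3 (CHOP), ATF3, CHAC1 and SESN2. Of its 20 regulators, 19 were above 0 (50.0% of all genes were), the median was 0.24 and 0 passed. Higher without overlap were 7 (2.13% of all genes were): ATF3, ATF4, DDIT3, TRIB3, SESN2, CHAC1 and EIF2AK3. ATF3 read 7.42, 7.60, 7.25 and 7.63 on the ZnO arrays and 5.92, 7.05, 6.28 and 6.48 on the controls. The lowest ZnO array was a little above the highest control, replicate 2. Its difference was 1.04 ± 0.22 (SE, adjusted p = 0.204 from limma), and 0.0208 with all 31 arrays.

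CHAC1, which degrades glutathione, read 7.41, 8.11, 7.79 and 7.68 on the ZnO arrays and 7.27, 6.82, 6.64 and 6.98 on the controls. ZnO replicate 1 was the lowest of its group and just above control replicate 1. DDIT3 read 6.91, 6.67, 6.90 and 7.39 on the ZnO arrays and 5.63, 6.43, 5.62 and 6.53 on the controls, with control replicates 2 and 4 close to the ZnO arrays. The differences were 0.82 ± 0.18 (SE, adjusted p = 0.221 from limma) and 0.92 ± 0.25 (SE, adjusted p = 0.427 from limma), and 0.73 ± 0.19 (SE, adjusted p = 0.37 from limma) for SESN2, an inhibitor of mTORC1 that passed with all 31 arrays (0.0393). Genes of amino acid supply under ATF4 were above 0 in 23 of 25 cases with a median of 0.19, led by the cystine importer SLC7A11 (0.72 ± 0.24 (SE, adjusted p = 0.571 from limma)), whose arrays overlapped. SARS1, the seryl-tRNA synthetase, was 1 of 3 in that list without overlap (0.37 ± 0.15). Endoplasmic reticulum chaperones, the targets of the other branches of the unfolded protein response, were above 0 in 12 of 21 cases, with a median of 0.02, 0 members higher without overlap and 1, the calcium-binding CALR, lower without overlap.

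NRF2 switches on genes that make glutathione and reduce thioredoxin. Of 26 such genes, 19 were above 0, 5 were higher without overlap, 1 (GSR) was lower without overlap (1.47% of all genes were), and the median was 0.16. OSGIN1 read 5.57, 5.57, 5.92 and 5.35 on the ZnO arrays and 4.62, 4.63, 4.93 and 4.97 on the controls. Every ZnO array was above the controls. Its difference was 0.82 ± 0.17 (SE, adjusted p = 0.192 from limma), and 0.0103 with all 31 arrays.

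TXNRD1, thioredoxin reductase, differed by 0.46 ± 0.12 (SE, adjusted p = 0.378 from limma) and passed with all 31 arrays (0.0353). GCLM, a subunit of the enzyme that limits glutathione synthesis, differed by 0.63 ± 0.19, and SRXN1, which repairs oxidised peroxiredoxins, by 0.54 ± 0.18, both without overlap (adjusted p = 0.525 and 0.555). HMOX1, the haem oxygenase induced by many metals, read 9.28, 9.43, 9.60 and 9.20 on the ZnO arrays and 8.21, 8.71, 8.23 and 8.67 on the controls. The ZnO arrays were all above the controls, with a clear gap. Its difference was 0.92 ± 0.22 (SE, adjusted p = 0.298 from limma), and 0.0183 with all 31 arrays. Of the peroxide and superoxide removing enzymes, 11 of 16 were at or below 0, with a median of -0.06, and 1, SESN3, was higher without overlap (0.67 ± 0.21, adjusted p = 0.533).

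Immediate early genes are switched on within minutes of kinase signalling, and the MAP kinase phosphatases among them switch it off again. Of 24 immediate early transcription factors, 23 were above 0, 4 were higher without overlap (JUNB, JUND, EGR1 and NR4A3), MYC was lower without overlap, and the median was 0.38. NR4A3, an orphan nuclear receptor, read 4.82, 4.52, 4.59 and 4.64 on the ZnO arrays and 3.25, 3.01, 2.98 and 3.81 on the controls. The controls were low, 3 of them under their array medians, and no ZnO array was near them. The difference was 1.38 ± 0.25 (SE, adjusted p = 0.128 from limma), 0.00318 with all 31 arrays and 0.0436 without control replicate 4.

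GADD45B, an activator of stress kinases in the list of MAP kinase phosphatases and stress kinases, read 9.49, 8.87, 9.14 and 9.34 on the ZnO arrays and 7.15, 8.58, 7.48 and 8.37 on the controls. All ZnO arrays were above the controls, of which replicates 2 and 4 were the higher pair. Its difference was 1.32 ± 0.25 (SE, adjusted p = 0.133 from limma), and 0.00325 with all 31 arrays. In that list 16 of 17 were above 0 (50.0% of all genes were), with a median of 0.37 (0.25 to 0.48 on leaving out single arrays). Higher without overlap were 3 (2.13% of all genes were): GADD45B, DUSP8 and DUSP14. DUSP1, the phosphatase of p38 and JNK, overlapped because control replicate 2 read 10.33, above the lowest ZnO array at 10.12, and differed by 0.96 ± 0.24 (SE, adjusted p = 0.327 from limma). Without that control its difference was 1.25 (adjusted p = 0.0465), and with all 31 arrays it passed (0.0281).

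NR4A1 (0.94 ± 0.23 (SE, adjusted p = 0.325 from limma)) and IER5 (0.97 ± 0.26 (SE, adjusted p = 0.37 from limma)) overlapped with control replicate 2 in the same way. JUND, a subunit of the AP-1 factor, did not overlap and differed by 0.59 ± 0.15 (SE, adjusted p = 0.327 from limma). For 14 of the 24 immediate early genes, control replicates 2 and 4 were the 2 highest controls. HBEGF, a ligand of the EGF receptor released under stress, read 7.15, 6.72, 7.11 and 6.66 on the ZnO arrays and 5.48, 6.47, 6.16 and 6.08 on the controls, with no overlap. Its difference was 0.86 ± 0.21 (SE, adjusted p = 0.306 from limma), and 0.0313 with all 31 arrays; 9 of 13 members of the EGF receptor list were above 0, with a median of 0.13 (0.02 to 0.20 on leaving out single arrays).

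**Figure D3:**
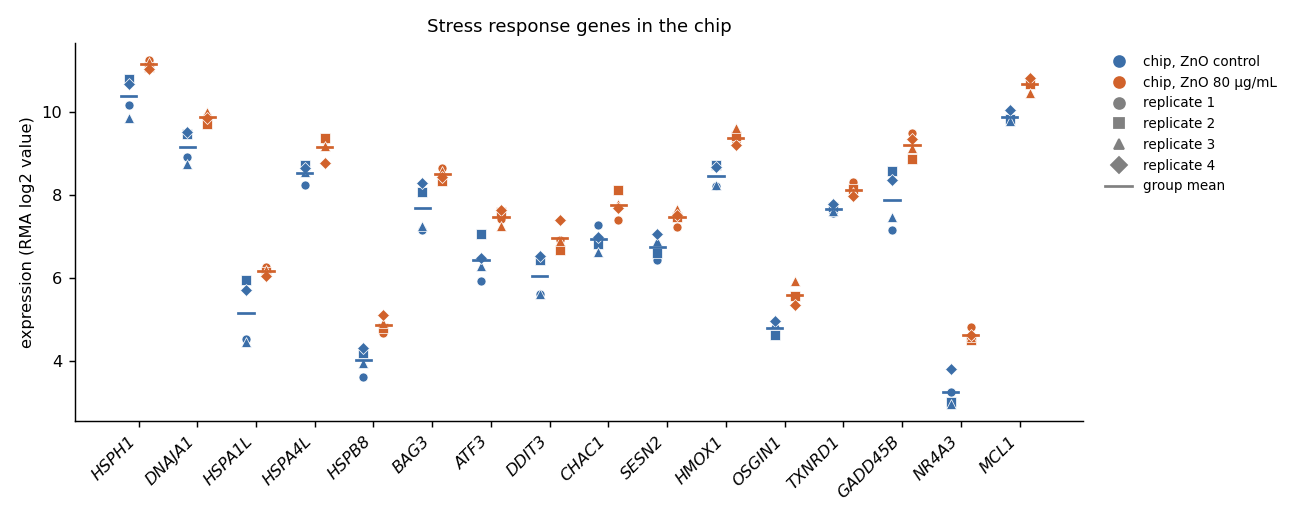
RMA log2 levels of 16 stress response genes on the 4 control (blue) and 4 ZnO (orange) chip arrays; symbols give the replicate number and lines the group means. In every one of the 16 the ZnO arrays lie above the controls, and in several, such as HSPA1L (5.95 and 5.71) and BAG3 (8.06 and 8.28), control replicates 2 and 4 lie nearest to them. Genes were picked for the plot after their values were seen.

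MCL1, a short-lived protein that blocks apoptosis, had the second smallest p. It read 10.70, 10.66, 10.46 and 10.82 on the ZnO arrays and 9.86, 9.83, 9.78 and 10.04 on the controls. The groups did not overlap, with little spread in either. Its difference was 0.78 ± 0.12 (SE, adjusted p = 0.061 from limma), 1.34e-04 with all 31 arrays, and it passed with an intensity trend in the prior (0.00238) or a filter on low values (0.0176). Of 25 p53 targets and apoptosis regulators, 18 were above 0 (50.0% of all genes were), with a median of 0.18. Higher without overlap were 5 (2.13% of all genes were): MCL1, CDKN1A, BAK1, TNFRSF10B and TP53INP1. CDKN1A, the p21 cell cycle inhibitor, differed by 0.55 ± 0.15 (SE, adjusted p = 0.423 from limma) and TP53INP1 by 0.61 ± 0.21. BCL10, an adaptor of NF-kB signalling, overlapped and differed by 0.46 ± 0.14.

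CSRP1, a LIM protein of the actin cytoskeleton, read 7.46, 7.71, 7.59 and 7.95 on the ZnO arrays and 6.52, 6.70, 6.81 and 7.11 on the controls. All ZnO arrays were above the controls. The difference was 0.89 ± 0.15 (SE, adjusted p = 0.128 from limma), 7.24e-04 with all 31 arrays and 0.0436 without control replicate 4. The antisense transcript RAB11B-AS1 differed by 1.11 ± 0.20 (SE, adjusted p = 0.128 from limma), with controls below the array medians. SIX4, a homeobox factor, differed by 0.89 ± 0.19 (SE, adjusted p = 0.204 from limma) and passed with all 31 arrays (0.00964). Among genes that passed with all 31 arrays and were named after their values were seen were STK40, a kinase-like protein (0.64 ± 0.15), the ephrin receptor EPHA2 (0.78 ± 0.18) and PPP1R15B, which restarts translation (0.53 ± 0.13). TFE3, a factor that drives lysosome genes and belongs to the list of endocytosis, lysosome and autophagy, passed there too (0.58 ± 0.14, adjusted p = 0.0381). ULBP1, a ligand of the receptor NKG2D of natural killer cells, differed by 1.44 ± 0.37 (SE, adjusted p = 0.37 from limma) and was named after its values were seen. RAET1K, a pseudogene of the same family, differed by 1.43 ± 0.26 (SE, adjusted p = 0.128 from limma). In both genes all 4 ZnO arrays were above the controls, although RAET1K read mostly below the array medians.

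On the lower side 0 genes passed in the fit of the chip arrays, where 593 had an unadjusted p below 0.05. PRR15L, named after its values were seen, read 8.90, 8.66, 9.02 and 8.78 on the ZnO arrays and 9.69, 9.52, 9.46 and 9.46 on the controls. All ZnO arrays were below all controls. Its difference was -0.69 ± 0.13 (SE, adjusted p = 0.133 from limma), and 0.00318 with all 31 arrays. The transcript LOC91450 read 3.49, 3.28, 3.12 and 3.22 on the ZnO arrays and 3.93, 4.28, 4.01 and 3.99 on the controls, without overlap and near the array medians (-0.77 ± 0.14 (SE, adjusted p = 0.128 from limma)).

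PFAS, an enzyme of purine synthesis that was also named after its values were seen, read 6.07, 6.49, 7.02 and 6.29 on the ZnO arrays and 7.20, 7.28, 7.31 and 7.07 on the controls. The ZnO arrays were all lower and more spread than the controls. Its difference was -0.75 ± 0.20 (SE, adjusted p = 0.37 from limma), and 0.0298 with all 31 arrays. Also passing there with lower levels and no overlap were HDHD5 (-0.51 ± 0.11), UROS, an enzyme of haem synthesis (-0.50 ± 0.12), POLA2, a subunit of the primase complex (-0.49 ± 0.13), and CENPM, a centromere protein (-0.61 ± 0.16), likewise named after their values were seen.

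Proliferation genes leaned to lower levels: 24 of 31 were at or below 0, with a median of -0.09 (-0.14 to -0.05 on leaving out single arrays), and 1, the thymidylate synthase TYMS, was lower without overlap. TYMS read 8.04, 8.33, 8.43 and 8.42 on the ZnO arrays and 8.93, 9.11, 8.90 and 8.47 on the controls. The highest ZnO array was just under control replicate 4. Its difference was -0.55 ± 0.18 (SE, adjusted p = 0.555 from limma). CDC45, which helps to open replication origins, differed by -0.63 ± 0.20, MCM3, of the replicative helicase, by -0.41 ± 0.22, and RRM2, of ribonucleotide reductase, by -0.28 ± 0.13, with overlap in each and 0 passing.

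Genes of respiration and glycolysis also lay mostly at or below 0, at 19 of 24 nuclear-encoded respiratory chain genes (median -0.11, -0.13 to -0.07 on leaving out single arrays, 0 without overlap) and 19 of 27 hypoxia-inducible and glycolytic genes (median -0.07, -0.13 to -0.00, with LDHA and PGK1 lower without overlap). Nucleolar and ribosome biogenesis genes were at or below 0 in 15 of 24 cases, from -0.63 ± 0.24 for NPM1, a histone chaperone of the nucleolus, with POLR1A, the large subunit of RNA polymerase I, at -0.44 ± 0.22. Their median was -0.12 (-0.15 to -0.05), and 1 member, WDR43, of the small subunit processome, was lower without overlap (-0.30 ± 0.14, adjusted p = 0.772). In these 3 lists 0 genes passed, also with all 31 arrays.

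Enterocyte markers lay on both sides of 0. Of 32 enterocyte and brush border markers, 17 were above 0 (50.0% of all genes were) and the median was 0.02. Only 1, the microvillus linker EZR (0.19 ± 0.11), was higher without overlap (2.13% of all genes were). The largest difference was in CDX2, the intestinal homeobox factor, which read 7.13, 7.20, 7.42 and 7.22 on the ZnO arrays and from 7.35 (replicate 2) to 8.13 (replicate 4) on the controls. The lowest control, replicate 2, lay within the range of the ZnO arrays, and the difference was -0.59 ± 0.17 (SE, adjusted p = 0.444 from limma). Drug metabolism (9 of 20 above 0, median -0.04), interferon-stimulated genes (11 of 22, 0.03), proteasome subunits (11 of 29, -0.04), fatty acid oxidation (10 of 23, -0.04) and stem markers (7 of 14, 0.02) had medians close to 0 with all arrays. On leaving out single arrays these ran from -0.06 to 0.09, -0.16 to 0.16, -0.07 to 0.02, -0.14 to 0.02 and -0.02 to 0.08, in the same order, and that of the enterocyte markers from -0.09 to 0.11. Cell junctions (16 of 21, 0.10), YAP targets (17 of 22, 0.16) and NF-kB, cytokine and chemokine genes (18 of 29, 0.16) lay slightly above, with ranges of 0.04 to 0.10, 0.12 to 0.21 and 0.05 to 0.21. Secretory lineage markers were above 0 in 9 of 22 cases, with a median of -0.01. Members of a list share arrays and can vary together, so these counts describe the 8 arrays and carry no test.

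**Figure D4:**
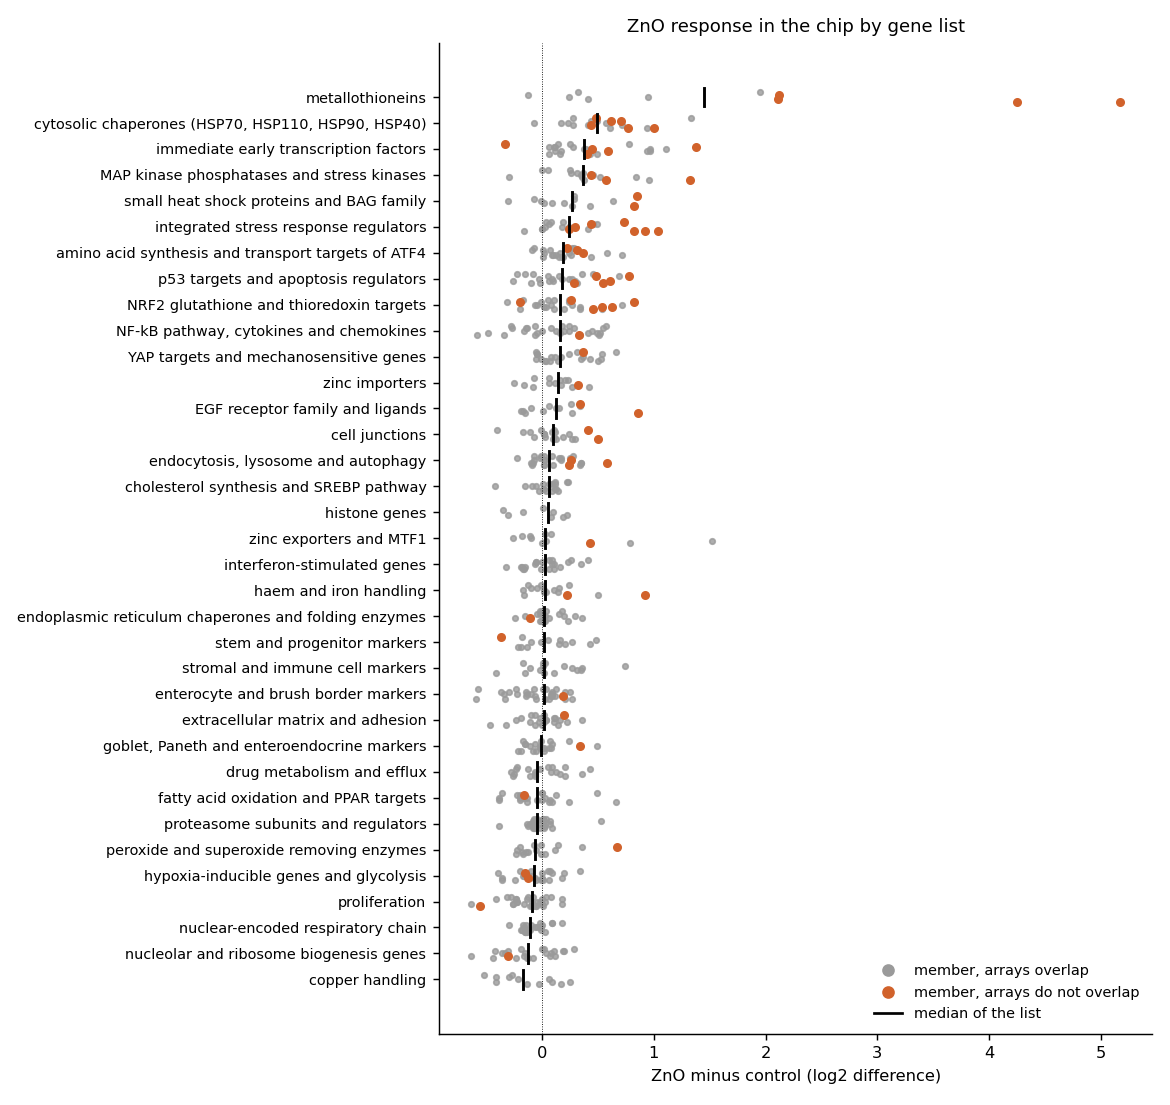
Log2 differences between ZnO and control in the chip (x axis) for the measured members of 35 gene lists (rows, sorted by median); black ticks are list medians and orange points are members whose 4 ZnO and 4 control arrays do not overlap. The median of metallothioneins, 1.45, is the highest, followed by cytosolic chaperones at 0.49 and immediate early genes at 0.38. A gene can belong to more than 1 list.

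Whether the response belonged to ZnO or to nanomaterial in the chip in general is the question of the next comparison, with TiO2 at 100 µg/mL, which is hardly soluble. TiO2 had its own 4 controls, and doses differed. The TiO2 response had 0 genes passing (1279 at an unadjusted p below 0.05). Of the 10 metallothioneins, 0 were above 0 with TiO2 (54.6% of all genes were), the median was -0.39 and 0 were without overlap in either direction (2.01% of all genes were higher and 1.33% lower). MT1B differed by -0.78 ± 0.67 (SE) with TiO2, MT1M by -0.07 ± 0.82, MT1G by -1.06 ± 0.53 and SLC30A2 by -0.38 ± 0.37. Replicate 2 of the TiO2 controls was the highest of them for 9 of 10 metallothioneins, against 24.1% of all genes: MT1B read 4.94 there and 1.73, 3.16 and 2.40 on the others. Without that array, left out after seeing the data, the median was -0.15 and 3 of 10 were above 0 (53.2% of all genes), with -0.15 ± 0.62 for MT1B, 0.38 ± 0.86 for MT1M, -0.57 ± 0.49 for MT1G and -0.09 ± 0.37 for SLC30A2.

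When the responses were subtracted, 0 of 22395 genes (0%) passed, and 841 had an unadjusted p below 0.05. MT1B had the smallest p, with a difference of responses of 5.95 ± 0.95 (SE, adjusted p = 0.2 from limma), which passed with all 31 arrays (4.59e-04) and was 6.72 without ZnO control replicate 4 (0.00247) and 5.32 without TiO2 control replicate 2 (0.254). On the TiO2 side MT1B read below the array medians on all 4 exposed arrays and 3 of 4 controls. The next 4 by p did not pass either, each with an adjusted p of 0.776: LOC91450 at -0.96 and RAET1K at 1.86, and LOC100652931 at 1.02 and MIR4487 at -1.92, the last 2 below the array medians on all 8 ZnO and control arrays. For HSPA4L the difference of responses was 1.09 ± 0.24 (SE), since it was -0.47 ± 0.17 with TiO2, and for MCL1 it was 0.74 ± 0.17. For HMOX1 it was 0.57 ± 0.31, as TiO2 gave 0.35 ± 0.22. Side by side, chaperones above 0 numbered 18 of 19 with ZnO and 10 of 19 with TiO2, and integrated stress regulators 19 and 11 of 20. Immediate early genes were above 0 in 23 of 24 cases with ZnO and 21 with TiO2, with medians of 0.38 and 0.13. MAP kinase phosphatases and stress kinases were so in 16 of 17 cases with ZnO and 15 with TiO2, and NRF2 genes in 19 and 8 of 26.

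The second comparison was with ZnO on Transwell, at 10 µg/mL and with 4 arrays and 4 controls of its own. There 0 genes passed (835 at an unadjusted p below 0.05). Of the metallothioneins, 8 of 10 were above 0 (50.0% of all genes), 4 were higher and 0 lower without overlap (2.31% and 1.66% of all genes) and the median was 0.42. MT1B was not among the larger ones: its means on Transwell were 2.44 with ZnO and 2.00 in the control (0.44 ± 0.54, SE). The differences were 1.10 ± 0.43 for MT1G, 0.51 ± 0.15 for MT2A, 0.70 ± 0.30 for SLC30A2 and 0.57 ± 0.17 for SLC30A1. Of the stress lists, 15 of 19 chaperones, 13 of 20 integrated stress regulators and 20 of 26 NRF2 genes were above 0 on Transwell. So were 19 of 24 immediate early genes and 15 of 17 MAP kinase phosphatases and stress kinases.

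The chip response minus the Transwell response passed for 1 gene of 22395 (0.00447%), again MT1B, at 4.73 ± 0.77 (SE, adjusted p = 0.0274 from limma). On Transwell MT1B read below the array medians on all 8 arrays, and in the chip on 3 of 4 controls. It did not pass when only the 16 ZnO arrays and their controls were fitted, nor without ZnO replicate 2, 3 or 4 or control replicate 1, 2 or 3, where 0 genes passed. The next genes by p had an adjusted p of 0.535 or above, among them SIX4 at 1.02, NUTM2F at 1.63, MIR378H at -1.49 and GFM1, a mitochondrial elongation factor, at -0.48. For MT1M the difference of responses was 3.57 ± 0.92 (SE) and for GADD45B 1.25 ± 0.30. MT1X and MT2A had differences of 0.02 ± 0.24 and -0.27 ± 0.21.

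**Figure D5:**
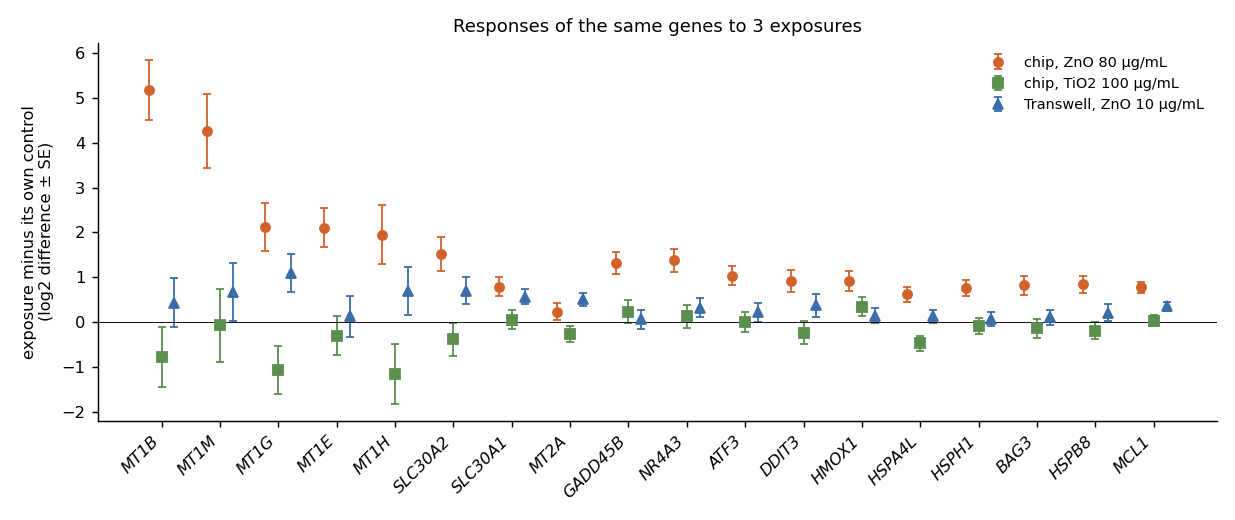
Log2 difference (± SE from limma) between each exposure and its own control for 18 genes: ZnO in the chip (orange), TiO2 in the chip (green) and ZnO on Transwell (blue), 4 arrays against 4 in each. MT1B stands at 5.17 with ZnO in the chip, -0.78 with TiO2 and 0.44 on Transwell. SEs come from the fit of the 16 chip arrays for the chip and of all 31 arrays for Transwell. Genes were picked for the plot after their values were seen.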

How the data were processed

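Total RNA of Caco-2 cells was hybridised to Affymetrix whole-transcript arrays. The deposited values are on the log2 scale, and the authors normalised them with RMA, per the submitters' processing notes, which name no version. RMA makes the arrays alike in distribution, so a shift common to all genes would not show. Of 53617 probe sets, 23871 name 1 gene and were used (1842 name several, 27904 none). Symbols were updated through RefSeq (22569 matched), and where a gene had more than 1 probe set (632 genes) that of highest mean was taken, which left 22395 genes.

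One mean per group was fitted to the 16 chip arrays (12 residual degrees of freedom) with limma 3.58.1 in R 4.3.3, and to all 31 arrays (23) for the comparison with Transwell. P-values were adjusted by Benjamini-Hochberg over all 22395 genes, with a threshold of 0.05.

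Named were passing genes without overlap (up to 15 a direction), the 5 smallest p of each comparison, all metallothioneins, zinc exporters and MTF1, and up to 4 members of each of 35 lists. Others are marked as chosen after their values were seen, are cell type markers, or are list members given for lack of overlap or the largest difference. The members and lists were chosen with earlier results of these data known. The labels do not say whether same-numbered arrays were paired. Over 11149 genes, deviations of same-numbered ZnO and control arrays correlated at -0.15, -0.23, 0.04 and 0.11, which shows no shared deviation across these genes. The median deviation of the metallothioneins was -0.48, 0.21, -0.12 and 0.34 on ZnO replicates 1 to 4. On control replicates 1 to 4 it was -0.01, -0.39, -0.29 and 0.99, so replicate 4 was the highest in both groups. Neither set of values can tell how the arrays were run. Promoter sequences came from RefSeq, GRCh38.p14. The number of arrays limits the precision. Alternatives changed the prior, array weights, filter, centring, probe set choice, block and the arrays fitted.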

Additional observations from a re-analysis of the deposited data

Results flagged for a closer look

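The check covered 172 groups of 4 arrays (86 genes with ZnO or in the control, not every gene named above). In 10 (5.81%) the gap of 1 array to the nearest other exceeded Dixon's 95% critical value for 4 samples, as a share of the group's range. Chance gives about 5%. Control replicate 4 accounted for 4 of these, all metallothionein genes: MT1B read 5.73 there against 2.54 to 2.70 on the other controls, MT1E 6.44 against 4.90 to 4.97, MT3 3.29 against 3.11 to 3.13 and MT1L 2.64 against 2.04 to 2.08. In the ZnO group SRXN1 read 9.14 in replicate 3, against 8.52 to 8.59, and RRM2 8.40 in replicate 2, against 8.27 to 8.28. Replicate 1 of that group read 7.67 for DUSP14, against 7.87 to 7.92, and 8.15 for TFE3, against 7.84 to 7.88. NPM1 read 4.50 in ZnO replicate 4, against 5.18 to 5.31. In the control WDR43 read 8.46 in replicate 1, against 8.05 to 8.09. What sets these arrays apart was not tested. The response of MT1B to ZnO was larger in the chip than on Transwell by 4.73 on the log2 scale, by the test of the difference itself. All 8 Transwell values and 3 of 4 chip controls lay below the array medians, so this size is uncertain, and the call was lost without ZnO replicate 2, 3 or 4 or control replicate 1, 2 or 3.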

How the results depend on the processing

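The ZnO response in the chip gave 1 passing gene, MT1B, and the same 1 with a robust prior, array weights, mean probe sets or centring. With all 53617 probe sets tested, 1 probe set without a listed gene passed (4.38, adjusted p = 0.0272 from limma). MT1B did not pass in that fit. The ZnO response gave 2 genes (MT1B and MCL1) with an intensity trend or a filter on low values and 0 with the 8 arrays alone. With all 31 arrays it gave 61, and on leaving out single arrays 0 to 5. An added fit without ZnO replicate 1 and control replicate 4 gave 3 (MT1B, MT1M and MT1DP). The ZnO minus TiO2 response gave 0 genes, 1 with all 31 arrays and 0 to 1 on leaving out single arrays. Without replicate 4 of TiO2 and of its control, or without TiO2 control replicate 2 (chosen after seeing the data), it gave 0. Chip minus Transwell gave 1, 0 with the 16 ZnO and control arrays or all probe sets, and 0 to 1 on leaving out single arrays. With the replicate number as a block, a pairing that the labels do not give, the ZnO response gave 1 gene. It was MT1B, also on the 8 arrays alone, with an adjusted p of 0.0156 from limma against 0.15 without the block. In the block fits ZnO minus TiO2 gave 2 (MT1B and MIR4487) and chip minus Transwell gave 1. Over 180 genes named in the results tables, 3341 of 3396 values kept their side of the threshold, 50 passed newly and 5, all of MT1B, no longer passed. The 5 are the fit of the 8 arrays and those without ZnO replicate 3 or 4 or control replicate 1 or 3. The fit of all probe sets, where MT1B did not pass either, is not among the 3396 values. The cause was not tested. Levels below the array medians, as for MT1B in 3 chip controls and on every Transwell array, limit how far its difference can be read.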
